A study of Mus musculus with 19 samples.

Results

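Common myeloid progenitors (CMP) and LSK cells were compared in mice whose blood had been rebuilt from stem cells carrying sh10, an shRNA against the long noncoding RNA *Spehd*. The comparison uses 6 of the 19 RNA-seq libraries, 3 from CMPs and 3 from LSK cells, and all genes were tested. The libraries were chosen by their labelled cell type and shRNA alone. Hematopoietic stem cells (HSCs) of C57BL6J mice (C57BL6 in the labels) were transduced with a doxycycline-inducible vector that couples the shRNA to the reporter zsGreen, and were transplanted into sub-lethally irradiated C57BL/6-CD45.1; cKit-w41 recipients. Animals reconstituted for 10 weeks and received doxycycline food for 6 days, and zsGreen-positive bone marrow cells were sorted. All 19 libraries share this procedure. Beside sh10 they hold CMP (4) and LSK (4) libraries with a control shRNA against *Renilla* luciferase, a gene that mice lack, and CMP (2) and LSK (3) libraries with sh20, another shRNA against *Spehd*. LSK cells lack lineage markers and carry Sca1 and cKit, and CMPs were taken from the lineage-negative, Sca1-negative, cKit-positive cells by CD34 and the Fcγ receptor. The host animals keep blood cells of their own, from which zsGreen separates the transduced ones. The labels do not tie a library to an animal, so p-values measure the spread between libraries of a group. *Spehd* itself was not analysed here, and no knockdown level was taken from these libraries.

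The LSK gate holds the HSCs, which can renew themselves for life, together with multipotent progenitors. The CMP gate lies downstream of it and holds cells that have lost lymphoid potential and give rise to erythroid cells, megakaryocytes, granulocytes and monocytes. In this step stem cell regulators such as *Hlf* and *Mecom* are known to be switched off, while *Gata1* and *Klf1* drive the erythroid program and *Cebpa* and *Spi1* the granulocyte and monocyte programs. An shRNA acts through its guide strand, whose seed (bases 2 to 8) decides much of its pairing, so sh10 and sh20 are shown here 5′ to 3′ with the seed in capitals.
sh10 guide: tACAAAGTcagcttttcctctc
sh20 guide: tATGCTATgacaacccagggca
The seeds of the 2 guides differ. The 22-base target of neither guide was found in a transcript of GENCODE vM21 (0 matches each).

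The 6 libraries held between 4707668 and 5617906 reads counted on genes, and the totals of CMP and LSK overlapped (two-sided exact permutation test of the means, p = 0.4, where 3 libraries against 3 cannot go below 0.1). The LSK library B stood apart. Its mean correlation with the other LSK libraries was 0.825, against 0.907 for library A and 0.893 for library C and between 0.977 and 0.979 among the CMP libraries. Relative to the mean of the other libraries of its group, the 3072 well-counted genes with the longest exonic sequence had a median log2 difference of -0.63 in it. The 1855 with the shortest had a median of 0.37. It also had the most reads with non-unique alignments of the 6, 10755001. The part of this library in each result was not tested beyond leaving it out, and where leaving it out moved a count or median by over 1.5 times the value without it is given.

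Of 15066 genes that passed a filter on low counts, 1131 (7.51%) were higher and 1293 (8.58%) lower in CMP than in LSK with sh10, by the quasi-likelihood test of edgeR at a false discovery rate (FDR) below 0.05. Among the 15 largest rises were *Add2*, *Sptb* and *Ank1* of the red cell membrane skeleton, and among the 15 largest falls the stem cell genes *Nkx2-3*, *Procr* and *Robo4*. The median size of the difference among the genes that passed was 1.02 on the log2 scale, and 178 higher and 306 lower genes differed at least 4-fold. In 5948 genes (39.5%) the CMP and LSK libraries did not overlap. Upper quartile normalization shifted the median log2 fold change of all genes to -0.11 (0.01 in the fit reported here) and the split to 764 higher and 1629 lower. Without the LSK library B, 1412 genes were higher and 1119 lower, and 980 and 925 of these, respectively, were also called with it. Without the CMP library B the counts were 597 and 694, and without the CMP library A they were 732 and 786. In bulk RNA, fewer cells of a type and less RNA per cell cannot be told apart.

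**Figure D1:**
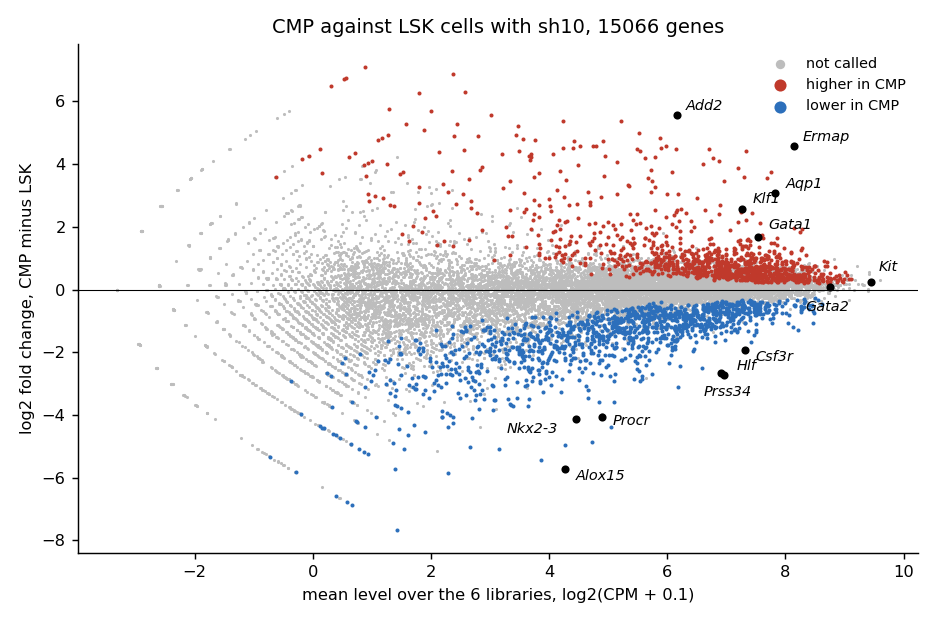
Log2 fold change of each of the 15066 tested genes between CMP and LSK with sh10 (vertical axis, positive when higher in CMP) against its mean level as log2(CPM + 0.1) over the 6 libraries (horizontal axis). Colored points passed an FDR of 0.05, 1131 above and 1293 below 0. *Add2* (5.57) and *Ermap* (4.57) lie near the top and *Alox15* (-5.72) near the bottom, while *Gata2* (0.07) and *Kit* (0.24) lie close to 0.

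The genes of the sort were examined first, as a check of the labels and not as a finding. *Ly6a*, a gene of the Sca1 antigen, had 2.94, 2.61 and 3.55 CPM (counts scaled to the library size) in the CMP libraries A, B and C and 50.2, 81.7 and 57.6 in the LSK libraries A, B and C. Each CMP library lay below each LSK library, as the gate requires. *Kit*, the receptor that both gates share, had 746, 767 and 761 CPM in CMP and 733, 395 and 791 in LSK and did not pass the test (log2 fold change 0.24). *Cd34* had 321, 292 and 376 and 440.4, 468 and 448 CPM. *Fcgr3*, which encodes an Fcγ receptor, had 7.99, 8.64 and 11.7 CPM in CMP and 36, 71.2 and 35.6 in LSK. Of the 7 genes stained for, 5 were lower in CMP and 2 did not pass. *Flt3* had a log2 fold change of -0.73. *Cd34*, *Flt3* and *Fcgr2b*, another Fcγ receptor gene, lost their calls in at least 1 alternative analysis. Without CMP library B, 2 of the 7 were called lower.

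Most of the stem cell regulators that passed were lower in CMP. Of 25 transcription factors and RNA-binding proteins known from HSCs, 12 were lower (48%, against 8.58% of all tested genes). The 2 higher ones are 8%, near the 7.51% of all. The median log2 fold change was -1.06 (all tested genes, 0.01). *Hlf*, which maintains HSC quiescence (chr11:90336536-90390895, minus strand), had 30.1, 27.9 and 40.1 CPM in the CMP libraries and 231, 166 and 254 in the LSK libraries, a log2 fold change of -2.73 (standard error 0.22). No CMP library came near an LSK library. *Nkx2-3*, a homeobox gene expressed in HSCs, had 2.73, 2.81 and 1.46 CPM in CMP and 40.0, 51.7 and 31.6 in LSK (-4.12, standard error 0.39). *Mecom*, which HSCs need for self-renewal, had 17.2, 15.1 and 21.3 CPM in CMP and 111, 26.4 and 119 in LSK (-2.26, standard error 0.59). The groups did not overlap for *Mecom*, but LSK library B lay close to the CMP libraries, and the call was lost without CMP library A or B. *Prdm16* (-2.52), *Hoxa10* (-2.09), *Hoxa9* (-1.22), *Erg* (-1.82), *Tcf15* (-1.9) and *Meis1* (-0.74) were also lower in CMP. *Tal1*, a factor shared by HSCs and erythroid cells, was higher, with 97.8, 89 and 90.0 CPM in CMP and 48.6, 52.2 and 51.8 in LSK (0.86, standard error 0.13). Of the 12 lower genes, 11 passed under every alternative analysis, all except *Mecom*, whereas 1 gene in place of 2 was called higher without CMP library A or B or LSK library B or C.

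Surface genes by which HSCs are recognised followed the same direction. Of 19, 9 were lower (47.4%, against 8.58% of all tested genes) and none was higher. The median log2 fold change was -0.55 (-0.89 without LSK library B). *Procr* (chr2:155751117-155755471, plus strand) encodes EPCR, the receptor on which the donor stem cells were sorted before transplantation. It had 4.42, 2.41 and 3.13 CPM in CMP and 58.9, 64.9 and 44.8 in LSK, a log2 fold change of -4.07 (standard error 0.43), with no overlap. *Robo4* (-3.46), *Fgd5* (-3.34), *Sult1a1* (-3.31), *Thy1* (-2.88) and *Esam* (-1.89) differed by more than *Cd27*, a receptor of the tumor necrosis factor family. *Cd27* had 80.8, 72.9 and 92.7 CPM in CMP and 179, 209 and 179.6 in LSK (-1.21), so that it was still well detected in CMP. *Thy1* was scarce in every library, between 0.421 and 5.17 CPM. Of the 9, only *Alcam* lost its call in an alternative analysis.

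Erythroid genes made up the largest group of higher genes among the lineage lists. Of 24 listed genes, 17 were higher in CMP (70.8%, against 7.51% of all tested genes) and 1 lower (4.17%, against 8.58%). The median log2 fold change was 1.65, and 15 of the 17 passed under every alternative analysis. *Klf1*, a transcription factor of erythroid cells (chr8:84901928-84905291, plus strand), had 273, 262 and 251 CPM in CMP and 34.5, 59.7 and 37.8 in LSK (2.57, standard error 0.33). *Gata1*, the master regulator of erythroid and megakaryocytic genes, had 286, 296 and 264 CPM in CMP and 74.7, 125 and 62.3 in LSK (1.69, standard error 0.19). The LSK library B held the highest level of both within LSK, still below each CMP library. *Gfi1b* (1.33) and *Zfpm1*, a cofactor of *Gata1* (0.85), were also higher.

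The receptors of the erythroid lineage moved with its transcription factors. *Epor*, the erythropoietin receptor, had 181, 181 and 146 CPM in CMP and 28, 40.4 and 19 in LSK (2.54, standard error 0.26). *Tfrc*, which takes up transferrin-bound iron, had 278, 343 and 254 CPM in CMP and 48.5, 22.6 and 88.2 in LSK (2.46, standard error 0.33). In both genes the lowest CMP library exceeded the highest LSK library by a wide margin. Membrane proteins of red cells had larger differences. *Ermap*, an erythroid membrane protein, had 572, 579 and 474 CPM in CMP and 20.6, 21.8 and 26 in LSK (4.57, standard error 0.55). *Rhag*, the Rh-associated glycoprotein, had 207, 239 and 155 CPM in CMP and 8.99, 7.65 and 10.3 in LSK (4.47, standard error 0.41). Its partner *Rhd* (4.0), ankyrin 1 (*Ank1*, 4.58) and the water channel *Aqp1* (3.07) were higher as well. *Sphk1*, a lipid kinase, and the mitochondrial carrier *Slc25a21* had differences of like size (4.1 and 4.5). *Car1* (0.99) and *Icam4* (0.96) lost their calls in at least 1 alternative. *Cnrip1* was the exception, with 2.1, 3.42 and 4.8 CPM in CMP and 35.8, 28.1 and 35.2 in LSK (-3.25). *Nfe2* had 271, 265 and 278 and 273, 309.9 and 273 CPM and overlapped between the groups. The adult globin genes did not pass, and their near-identical copies share reads.

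Heme synthesis, which red cell precursors run at high rate, was examined through the enzymes of the pathway. Of 9 genes, 6 were higher in CMP (66.7%, against 7.51% of all tested genes) and 1 lower (11.1%, near the 8.58% of all). The median log2 fold change was 0.57. *Cpox*, coproporphyrinogen oxidase, had 327, 338 and 260.5 CPM in CMP and 64.7, 68.5 and 77.3 in LSK (2.14, standard error 0.17). *Fech*, which inserts the iron, had a log2 fold change of 1.36. Both passed under every alternative, whereas *Uros* (0.73), *Alad* (0.57) and *Urod* (0.42) did not. Neither enzyme of the first step was called higher. *Alas1*, the form used in all tissues, was lower, with 111, 113 and 114 CPM in CMP and 169, 205 and 142 in LSK (-0.62). Its call was lost in at least 1 alternative. Without CMP library A, CMP library B or LSK library A, 3 genes of the pathway were called higher, and 4 were without LSK library C. With upper quartile normalization or the 6 libraries alone 3 were. *Alas2*, the erythroid form, had 5.68, 5.22 and 2.51 CPM in CMP and 10.8, 1.53 and 1.63 in LSK and overlapped between the groups.

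The 15 largest higher genes were taken by the fold change among well-counted genes without overlap. *Add2*, which encodes β-adducin of the membrane skeleton, had 149, 165 and 108 CPM in CMP and 2.12, 4.02 and 2.71 in LSK (5.57, standard error 0.48). *Sptb*, the erythroid β-spectrin, had 92.1, 106 and 67.3 CPM in CMP and 1.59, 1.91 and 4.7 in LSK (5.0, standard error 0.69). *Pklr*, the pyruvate kinase of liver and red cells, had 125, 144 and 92.5 CPM in CMP and 7.05, 4.21 and 3.79 in LSK (4.58, standard error 0.63). In each of these 3 genes the lowest CMP library was more than 10 times the highest LSK library. The others were *Ank1*, *Tmem56* (5.38), *Sh3tc2* (5.37), *Acsl6* (5.22), *Trim10* (4.91), *Nxpe2* (4.82), *Tspan8* (4.79), *Nags* (4.77), *Spon2* (4.74), *Abcg4* (4.73), *Col5a1* (4.59) and *Sh2d4a* (4.57). All 15 passed under every alternative analysis.

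The promoters of the higher erythroid genes were read from RefSeq (GRCm38.p6), from 250 bases before to 50 after the start site, since *Gata1* and *Klf1* were themselves higher. The letters AGATAA, a core of sites that GATA factors bind, were searched on both strands (TTATCT on the other). They were present in 4 of the 14 higher erythroid genes with a promoter in the table (28.6%; *Epor*, *Icam4*, *Rhd* and *Sphk1*), in 1 of 17 lower stem cell genes (5.88%; *Erg*) and in 896 of 10794 tested genes (8.3%). CCACACCC, a core of sites for *Klf1* (GGGTGTGG on the other strand, with no overlap with the first motif), was present in 1 of the 14 (7.14%; *Slc25a21*) and in 4.6% of tested genes. The promoters of *Epor*, *Rhd* and *Icam4* are shown because their matches lie within 60 bases of the start site, on the gene's strand with the match in capitals.
*Epor*, chr9:21963527-21963826, minus strand: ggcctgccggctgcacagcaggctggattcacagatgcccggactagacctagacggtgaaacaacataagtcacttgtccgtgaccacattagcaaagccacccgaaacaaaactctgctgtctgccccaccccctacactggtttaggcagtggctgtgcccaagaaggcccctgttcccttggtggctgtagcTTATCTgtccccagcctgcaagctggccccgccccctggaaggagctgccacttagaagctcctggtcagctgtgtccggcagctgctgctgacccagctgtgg
*Rhd*, chr4:134864286-134864585, plus strand: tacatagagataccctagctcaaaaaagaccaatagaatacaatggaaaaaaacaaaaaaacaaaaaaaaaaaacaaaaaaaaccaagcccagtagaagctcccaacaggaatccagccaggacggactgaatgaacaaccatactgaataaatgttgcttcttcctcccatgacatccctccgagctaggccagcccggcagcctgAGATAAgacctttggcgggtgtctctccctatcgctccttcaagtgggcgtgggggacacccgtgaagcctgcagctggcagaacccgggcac
*Icam4*, chr9:21029182-21029481, plus strand: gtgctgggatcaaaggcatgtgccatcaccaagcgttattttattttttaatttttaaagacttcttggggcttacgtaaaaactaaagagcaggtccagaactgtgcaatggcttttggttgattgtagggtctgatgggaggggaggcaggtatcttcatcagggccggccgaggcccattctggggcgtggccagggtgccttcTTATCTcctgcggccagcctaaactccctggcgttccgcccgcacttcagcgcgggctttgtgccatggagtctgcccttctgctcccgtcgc
The first base of the match lies at -54 from the start site in *Epor*, in the TTATCT direction, at -43 in *Rhd*, in the AGATAA direction, and at -43 in *Icam4*, in the TTATCT direction. The match is a description of the letters, and binding was not measured here.

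The granulocyte and monocyte genes that passed were lower in CMP. Of 23 tested genes, 14 were lower (60.9%, against 8.58% of all tested genes) and none was higher. The median log2 fold change was -1.10, and 9 of the 14 passed under every alternative. Without the LSK library B, 10 were lower and the median was -0.68. *Csf3r*, the receptor of granulocyte colony-stimulating factor (chr4:126024550-126044440, plus strand), had 68.2, 61.9 and 68.5 CPM in CMP and 252, 276 and 227 in LSK (-1.93, standard error 0.12). Its libraries agreed closely within each group. *Elane*, neutrophil elastase, had 55.7, 37.8 and 57.2 CPM in CMP and 136, 164 and 129 in LSK (-1.51, standard error 0.21). *Gfi1*, a repressor needed for neutrophil formation, had 10.3, 11.7 and 17.3 CPM in CMP and 82.3, 81.7 and 64.7 in LSK (-2.54, standard error 0.39). *Cebpe* (-3.81), *Ms4a3* (-2.41), *Csf2rb* (-1.47), *Cebpb* (-1.31) and *Prtn3* (-1.23) were lower too. *Cebpa* (-1.26), *Spi1* (-0.69) and *Csf2ra* (-0.66) were called lower with all libraries and each lost its call without LSK library B or without CMP library B, among others. *Mpo*, myeloperoxidase of primary granules, had 465, 421 and 475 CPM in CMP and 430.2, 484 and 444 in LSK and overlapped (0.00, standard error 0.13). *Irf8*, which directs monocyte fate, had 289, 279 and 346 CPM in CMP and 166, 358 and 226 in LSK (0.29) and overlapped as well.

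Mature neutrophils are lineage-positive cells that the sort should remove. Of 13 of their genes, 6 were lower in CMP (46.2%, against 8.58% of all tested genes), none of them under every alternative, with a median of -3.84. Without the LSK library B 1 was lower, with a median of -2.67, and without CMP library A 1 was and without CMP library B or C none was. The summed level of the 14 listed neutrophil genes was 13.9 to 21.9 CPM in the CMP libraries and 89.0, 356 and 125 CPM in the LSK libraries A, B and C. *Ltf*, lactoferrin, had 1.47, 2.01 and 0 CPM in CMP and 12.5, 67.7 and 31.8 in LSK, and *Ngp* had 3.16, 1.81 and 0.209 and 27.8, 100.2 and 24.6. Both were among the 15 largest lower genes and each lost its call without LSK library B, CMP library B or CMP library C. The part of such cells in the granulocyte result was not tested.

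The other genes among the 15 with the largest falls were not of mature neutrophils. *Alox15*, a lipoxygenase, had 0.631, 0.603 and 0.835 CPM in CMP and 39.8, 42.5 and 30.3 in LSK (-5.72, standard error 0.83). *Ccm2l* had 0.841, 0.402 and 0.627 CPM in CMP and 23.8, 38.3 and 22.6 in LSK (-5.45, standard error 0.52). Both were near the detection limit in CMP and plainly detected in LSK. *Il18*, a cytokine of the interleukin 1 family, had 2.1, 1.0 and 2.92 CPM in CMP and 18.7, 30.6 and 19.5 in LSK (-3.5). The list also held *Ly6a*, a gene of the sort, and *Nkx2-3*, *Procr*, *Robo4*, *Cyp11a1* (-3.72), *Bcam* (-3.71), *Lrrn4* (-3.69), *Hid1* (-3.66), *Slc16a11* (-3.59) and *Col4a2* (-3.59). Of the 15, 13 passed under every alternative analysis, all except *Ltf* and *Ngp*.

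**Figure D2:**
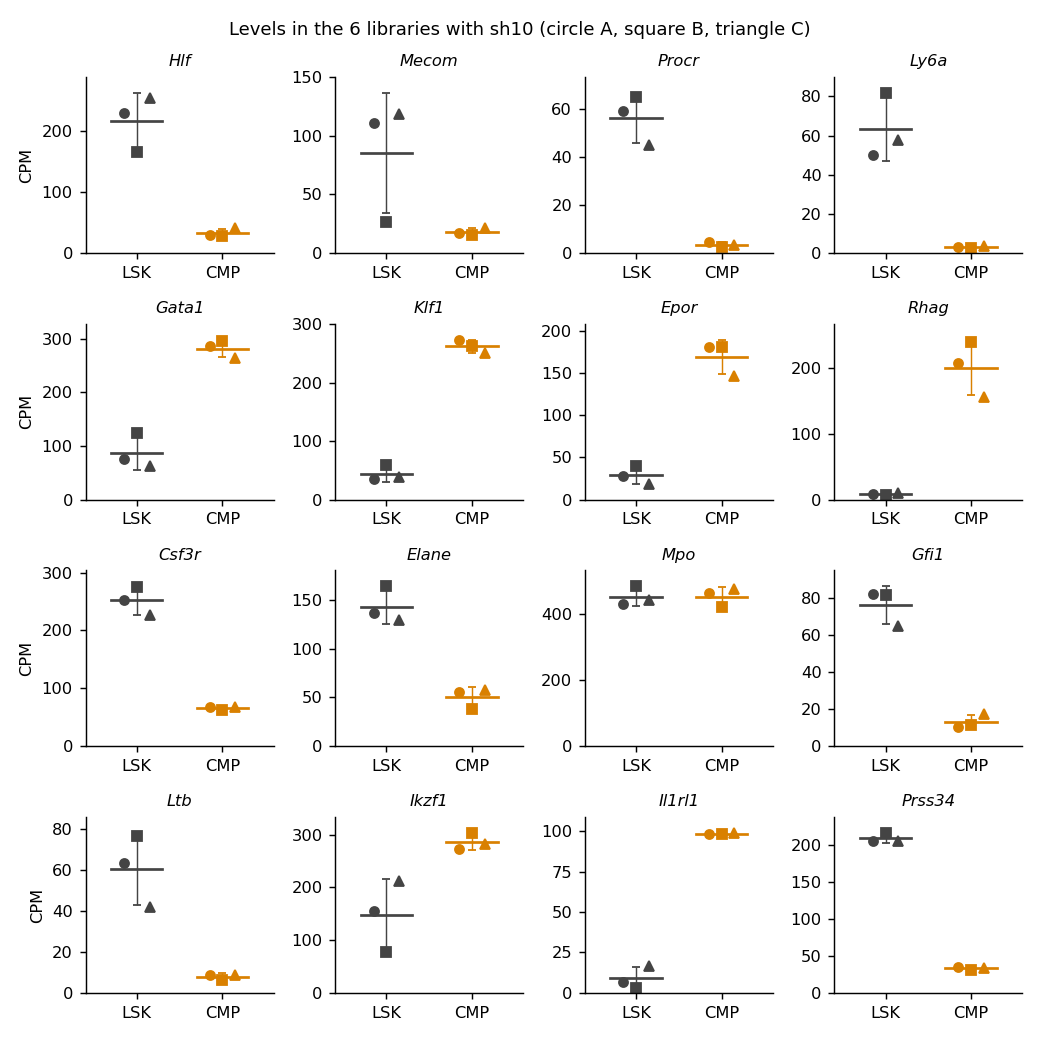
Levels of 16 genes as CPM in the 3 CMP and 3 LSK libraries with sh10, each panel on its own axis. Circles, squares and triangles are libraries A, B and C, the line is the mean and the bar 1 SD. *Ly6a* encodes the Sca1 antigen of the sort and is shown as a check of the labels. Stem cell genes (*Hlf*, *Mecom*, *Procr*) lie lower in CMP and erythroid genes (*Gata1*, *Klf1*, *Epor*, *Rhag*) higher, and *Mpo* overlaps.

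Of 17 mast cell, basophil and eosinophil genes, 4 were lower (23.5%, against 8.58% of all tested genes) and 1 higher (5.88%, against 7.51%), and 16 had a negative log2 fold change, with a median of -1.87. The median was -0.66 without LSK library C, and 7 were lower with the 6 libraries alone and 10 with no filter on low counts. *Prss34*, a basophil protease, had 34.7, 31.3 and 33 CPM in CMP and 205, 215 and 204 in LSK (-2.66, standard error 0.21). *Mcpt8*, another basophil protease, had 15.1, 14.3 and 15.9 CPM in CMP and 124, 136 and 127 in LSK (-3.09, standard error 0.42). Within each group these libraries differed little. *Hdc*, which makes histamine, was lower by a similar size (-2.12), and so was *Fcer1a* (-2.72), whose call was lost in at least 1 alternative. *Il1rl1*, the receptor of interleukin 33, was the higher gene, with 98, 98.3 and 98.8 CPM in CMP and 6.87, 3.25 and 16.6 in LSK (3.46, standard error 0.55).

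Of 21 megakaryocyte genes, 18 had a positive log2 fold change, 3 were called higher (14.3%, against 7.51% of all tested genes) and 2 lower (9.52%, near the 8.58% of all), with a median of 0.81. Without LSK library B 6 were called higher and 1 lower, without any one CMP library 2 were higher, and 1 was lower without CMP library A or B and 3 without CMP library C or LSK library C. When blocked by replicate letter, 8 were called higher, with DESeq2 6, with no filter on low counts 10 and with the 6 libraries alone 5. *Gp5*, a platelet glycoprotein, had 188, 195 and 240.0 CPM in CMP and 113, 146 and 90.3 in LSK (0.84, standard error 0.18). *F2rl2*, a thrombin receptor, had 41.6, 43.6 and 78.7 CPM in CMP and 13, 16.1 and 13.5 in LSK (1.94). *F2r*, another thrombin receptor, was called with 0.64. Of the 3, *F2rl2* alone passed under every alternative. *Vwf* (1.33) and *Pf4* (0.65) did not pass, at FDRs of 0.0657 and 0.0510 by edgeR. *Selp*, the platelet selectin, was lower, with 49, 58.1 and 69.3 CPM in CMP and 121, 224 and 149.9 in LSK (-1.49), in a call lost in at least 1 alternative. *Itga2b* overlapped between the groups (0.3).

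Of 20 lymphoid genes, 5 were lower (25%, against 8.58% of all tested genes) and 2 higher (10%, near the 7.51% of all), with a median of -0.37. With no filter on low counts 8 were lower and 3 higher. The median was 0.02 without LSK library C, -0.24 without CMP library B, -0.63 without CMP library C and -0.56 without LSK library B. Jchain, the joining chain of antibodies, was not called and had 0.210, 3.42 and 6.89 CPM in CMP and 0.176, 0.957 and 166 in LSK, so that library C alone held much of it. *Ltb*, lymphotoxin β (chr17:35194439-35196320, plus strand), had 8.83, 6.23 and 8.98 CPM in CMP and 63.4, 76.5 and 41.9 in LSK (-2.92, standard error 0.33). *Lax1*, an adaptor of lymphocyte receptors, had 5.26, 6.23 and 8.15 CPM in CMP and 51.6, 26.2 and 43.4 in LSK (-2.62). *Il2rg*, the common γ chain, had 60.4, 60.7 and 58.9 CPM in CMP and 112, 112 and 99.2 in LSK (-0.84). The chemokine receptor *Ccr9* (-3.06) and the kinase *Lck* (-1.2) were the other lower genes. The higher genes were the transcription factors *Ikzf1* and *Bcl11a*. *Bcl11a* had 271, 283 and 247 CPM in CMP and 164, 148 and 168 in LSK (0.74), and *Ikzf1* had 273, 303 and 282 and 154, 77.7 and 212 (0.95), with the lowest level in LSK library B. *Ccr9*, *Lck* and *Ikzf1* lost their calls in at least 1 alternative. *Dntt*, the enzyme that adds bases in receptor rearrangement, had 125, 80.8 and 137 CPM in CMP and 166, 157 and 195 in LSK and did not pass (-0.59).

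**Figure D3:**
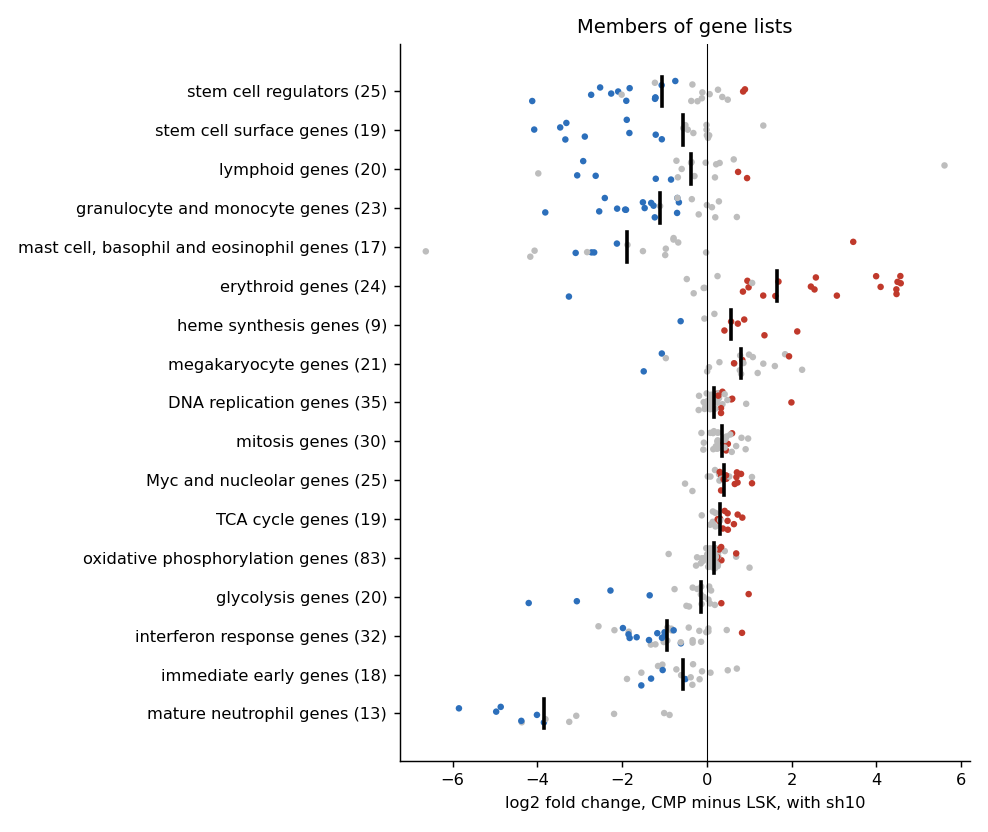
Log2 fold change between CMP and LSK with sh10 for each tested member of 17 gene lists, with red for members called higher, blue for members called lower, gray for the rest and a black bar at the median. Erythroid genes have a median of 1.65 and mature neutrophil genes of -3.84, while those of DNA replication, nucleolar and oxidative phosphorylation genes have medians from 0.16 to 0.40.

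Of 35 DNA replication genes, 8 were higher (22.9%, against 7.51% of all tested genes) and none lower, with a median of 0.18. Without CMP library B, 2 were called, and with the 6 libraries alone 2 were as well. With upper quartile normalization 3 were called and the median was 0.05. *Ccne1*, cyclin E1, which drives entry into S phase, had 143, 166 and 110.3 CPM in CMP and 27.5, 41.3 and 36.3 in LSK (2.0, standard error 0.31). It was the only one of the 8 to pass under every alternative. *Cdc6*, which licenses replication origins (0.6), and *Mcm10*, which acts when origins fire (0.58), differed less. Of 30 mitosis genes, 4 were higher (13.3%; *Kif20a*, *Ccna2*, *Plk1* and *Ccnb1*), none under every alternative, and the median was 0.35. The summed level of these genes was 6250 to 6533 CPM in the CMP libraries, 5455 CPM in LSK library A, 3532 CPM in B and 5675 CPM in C. Without LSK library B 6 were called and the median was 0.24, without LSK library C 7 were called, without CMP library A or B 2 and 1 were, with no filter on low counts 10 and with the 6 libraries alone 1. Of 12 brakes of the cell cycle 2 were lower (16.7%, against 8.58% of all) and 1 higher (8.33%, near the 7.51% of all). *Cdkn1c*, the inhibitor p57 that marks quiescent HSCs, had 4.0, 6.43 and 6.68 CPM in CMP and 29.3, 25.8 and 22.9 in LSK (-2.18, standard error 0.34). *Ccng2* (-0.65) was also lower and *Rb1* (0.96) higher, each lost in at least 1 alternative. No brake was called higher without any one CMP library and 2 were without LSK library C, and 1 was lower without CMP library B or LSK library A. *Rb1* had 69.8, 18.9 and 73.5 CPM in LSK, lowest in library B.

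*Myc* targets and nucleolar genes, which serve ribosome assembly, were higher in 14 of 25 members (56%, against 7.51% of all tested genes). None was lower, and the median was 0.40. *Rrp12*, a ribosome export factor, had 197, 239 and 172 CPM in CMP and 117, 122 and 108 in LSK (0.81, standard error 0.16), and of the 14 it alone passed under every alternative. Without CMP library A or B 8 of the 25 were called, with upper quartile normalization 7 and with the 6 libraries alone 5. *Ddx21*, a nucleolar helicase, had 311, 342 and 285 CPM in CMP and 188, 82.8 and 176 in LSK (1.07), again lowest in LSK library B. The *Myc* gene itself did not pass, with 435, 408 and 416 and 350.4, 397 and 354 CPM (0.19). Of 82 cytosolic ribosomal protein genes 2 were called higher (2.44%, below the 7.51% of all tested genes), *Rps6* (1.11) and *Rpl36a* (0.94), and none lower, with a median of 0.17 (0.32 without LSK library B, 0.10 without CMP library A and 0.08 without LSK library C). Such genes share reads with pseudogenes, and neither was called without any one of the CMP libraries or of LSK libraries A and C, while 1 gene was called lower without CMP library C. With upper quartile normalization none was called and the median was 0.04.

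Mitochondrial metabolism was examined since the study followed up oxidative phosphorylation genes among the pathways it found changed in CMPs. Of 19 tricarboxylic acid (TCA) cycle genes, 11 were higher (57.9%, against 7.51% of all tested genes) and none lower, with a median of 0.31. *Cs*, citrate synthase, had 366, 384 and 349 CPM in CMP and 262, 259 and 257 in LSK (0.5, standard error 0.07). *Dlat*, of the pyruvate dehydrogenase complex, had 262, 302 and 244 CPM in CMP and 162, 133 and 157 in LSK (0.84, standard error 0.13). With *Dlst* (0.64) they were the 3 of the 11 that passed under every alternative, and 7 were called without CMP library B and 5 with the 6 libraries alone and 6 with no filter on low counts. Of 83 oxidative phosphorylation genes, 74 had a positive log2 fold change and 6 were called higher and none lower, with a median of 0.16. The share called higher, 7.23%, is close to the 7.51% of all tested genes. *Ndufs1*, the largest subunit of complex I, had 276, 306 and 279 CPM in CMP and 201, 129 and 203 in LSK (0.69, standard error 0.14). The other 5 called, named after their values were seen, were *Ndufa10* (0.35), *Uqcrfs1* (0.34), *Uqcrc2* (0.29), *Sdha* (0.26) and *Sdhd* (0.25). *Atp5g1* (1.01) and *Atp5l* (0.69) had large values and did not pass, and the lowest values were those of *Atp5g2* (-0.9), *Ndufv3* (-0.25) and *Cox7a2l* (-0.23), none called. The number called was 12 and the median 0.27 without LSK library B. It was 2 without CMP library A, CMP library B or LSK library A and 4 without CMP library C or LSK library C, and the median was 0.09 without CMP library A or LSK library C. With upper quartile normalization it was 1 and the median 0.03, with the 6 libraries alone or no filter on low counts it was 1, and when blocked by replicate letter it was 2.

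Glycolysis is known as the main energy source of HSCs. Of 20 glycolysis genes, 4 were lower (20%, against 8.58% of all tested genes) and 2 higher (10%, near the 7.51% of all), with a median of -0.13. *Ldhb*, the lactate dehydrogenase B chain, had 1.89, 5.43 and 8.35 CPM in CMP and 36.5, 54.3 and 41.2 in LSK (-3.07, standard error 0.37). *Aldoc*, aldolase C, had 4.21, 7.84 and 5.64 CPM in CMP and 27.3, 32.9 and 25.7 in LSK (-2.27). *Slc2a1*, the glucose transporter GLUT1, had 19.4, 25.7 and 40.3 CPM in CMP and 71.6, 68.7 and 77.1 in LSK (-1.35). All 3 were lower with no overlap. *Eno2* was also called lower but was nearly absent, with 0, 0.201 and 0.209 CPM in CMP and 4.23, 3.44 and 1.26 in LSK. *Pfkm* (0.99) and *Hk1* (0.34), which act early in the pathway, were higher. *Eno2* and *Hk1* lost their calls in at least 1 alternative.

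Most interferon response genes that passed were lower in CMP. Of 32 interferon response genes, 11 were lower (34.4%, against 8.58% of all tested genes) and 1 higher (3.12%, against 7.51%), with a median of -0.93. *Irf1*, an interferon-induced transcription factor, had 68.6, 67.1 and 90.7 CPM in CMP and 188, 207 and 188 in LSK (-1.36, standard error 0.16). *Oasl2* had 27.3, 34.4 and 37.8 CPM in CMP and 96.2, 110.2 and 107 in LSK (-1.65), and *Rtp4* had a log2 fold change of -1.85. With *Ifi44* (-1.82) these were the 4 of the 11 that passed under every alternative. *Isg20* was the higher gene (0.83), with a call lost in at least 1 alternative. Without CMP library A, 6 were called lower. Of 18 immediate early genes, 4 were lower (22.2%) and none higher, with a median of -0.55. *Ier3* had 12.8, 13.5 and 18 CPM in CMP and 38.6, 52.2 and 38.5 in LSK (-1.54, standard error 0.31), and *Dusp1* (-1.31), *Zfp36* (-1.04) and *Ier2* (-0.5) lost their calls in at least 1 alternative. Of 19 antigen presentation genes 3 were lower (15.8%; *H2-Eb1*, *H2-DMb1* and *H2-DMa*), and none of the 19 was called without LSK library B, CMP library A or CMP library B, while 2 were without CMP library C or LSK library C, and 1 when blocked by replicate letter.

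Of 15 genes of adhesion and homing in the niche, 3 were lower (20%, against 8.58% of all tested genes), *Robo4*, *Esam* and *Emcn* (-2.53), and 2 were higher (13.3%, against 7.51%), *Itga4* (1.08) and *Itga5*. Without CMP library A, 1 was higher and 2 were lower, and 2 were lower without CMP library B or C. *Itga5*, the α5 integrin that binds fibronectin, had 179, 196 and 187 CPM in CMP and 116, 125 and 121 in LSK (0.63). *Itga4*, *Itga5* and *Emcn* lost their calls in at least 1 alternative. Of 10 imprinted genes known to restrain growth, 2 were higher (20%) and 1 lower (10%, near the 8.58% of all). *Grb10* had 105, 165 and 89.4 CPM in CMP and 33.8, 7.84 and 37.2 in LSK (2.18), with the lowest LSK value in library B, and *Igf2r* had a log2 fold change of 1.94. Neither kept its call under every alternative, and 1 gene was called higher without CMP library B. *Cdkn1c* was the lower gene. *Gata2*, the neighbor of *Spehd* at chr6:88193891-88207032 on the plus strand, had 417, 421 and 491 CPM in CMP and 418, 457 and 393 in LSK. The groups overlapped (log2 fold change 0.07, standard error 0.1). *Rpn1*, another gene near the locus, had a log2 fold change of 0.17 and did not pass.

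Markers of other cells in the marrow were examined beside these results. Of 12 macrophage and dendritic genes, *C1qa*, *C1qb* and *C1qc* were lower in CMP (25%, against 8.58% of all tested genes). Of the 3, *C1qa* alone passed under every alternative, and 1 gene of the list was called without CMP library B, CMP library C or LSK library B. The summed level of the 13 listed genes was 178 to 189 CPM in CMP and 300 to 466 CPM in LSK. Of 7 tested stroma and endothelium genes 2 were lower (28.6%), *Emcn* and *Pdgfrb*. None was without CMP library A or B and 1 was without CMP library C or LSK library A or C. Sums over the 13 listed were 194 to 260 CPM in CMP and 290 to 377 CPM in LSK. Of 13 tested B and T cell genes 1 was lower (7.69%, below the 8.58% of all), *Cd79b*, in a call lost in at least 1 alternative. Sums over the 16 listed were 41.4 to 62.2 CPM in CMP and 84.1 to 115 CPM in LSK. *Cd79b*, a B cell receptor chain, had 23.3 to 85.9 CPM in the 6 libraries, while *Cd79a*, its partner, and *Cd3e*, of the T cell receptor complex, lay between 0 and 5.6 CPM. The part of these cells in the results was not tested.

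For a set of respiratory genes the study compared CMP with LSK for each shRNA. Here the difference with sh10 was set, for all genes, beside that in the *Renilla* libraries of the same fit. There 1663 genes (11.0%) were higher and 1316 (8.73%) lower in CMP. Of the genes higher with sh10, 714 were also higher with *Renilla* shRNA (63.1% of those with sh10 and 42.9% of those with *Renilla*). Of the lower genes 759 were shared (58.7% and 57.7%), and 4 genes lower with sh10 were higher with *Renilla*. Both sets of log2 fold changes had a Pearson r of 0.795 across 10344 genes of at least 50 counts on average, and of 0.631 across all tested genes, and genes do not count as replicates. The difference between the 2 transitions was then tested itself. By the quasi-likelihood test of edgeR, at an FDR below 0.05, 3 genes (0.0199%) were more negative with sh10 and 0 more positive, while 1169 had an unadjusted p under 0.05 and DESeq2 called 23 and 3.

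**Figure D4:**
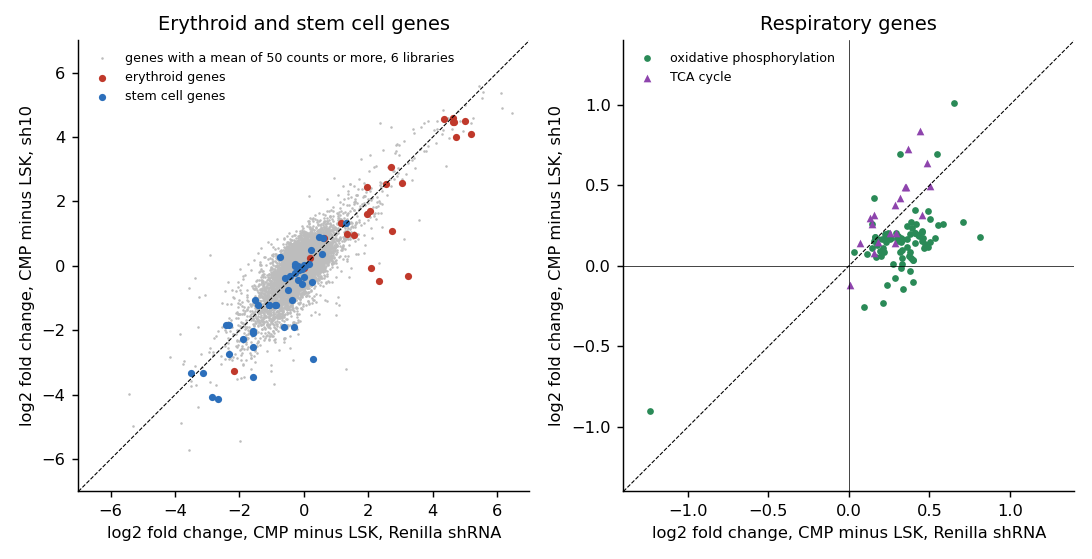
Log2 fold change between CMP and LSK with *Renilla* shRNA (horizontal) and with sh10 (vertical) for erythroid and stem cell genes (left) and for oxidative phosphorylation and TCA cycle genes (right). The dashed line marks equal values. Oxidative phosphorylation genes lie mostly below the line, with 74 of 83 smaller with sh10.

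Values of single erythroid genes were close in both transitions for some members. *Klf1* had a log2 fold change of 3.03 with *Renilla* shRNA and 2.57 with sh10, *Epor* 2.56 and 2.54, and *Rhag* 4.67 and 4.47. Of the 24, 20 were higher with *Renilla* (83.3%, against 11.0% of all), with a median of 2.45 against 1.65. The difference was negative with sh10 in 18 of the 24, with a median of -0.35. It had an unadjusted p under 0.05 in 3 (12.5%, against 7.76% of all tested genes). Megakaryocyte genes were called higher in 13 of 21 with *Renilla* (61.9%, against 11.0% of all) and in 3 with sh10, with medians of 1.2 and 0.81. The difference was negative in 17 of the 21 (median -0.42) and had an unadjusted p under 0.05 in 5 (23.8%). The 3 called with sh10 were 6 without LSK library B or with DESeq2, 8 when blocked by replicate letter and 10 with no filter on low counts. Stem cell regulators had medians of -0.75 and -1.06. *Tcf15* had -0.3 with *Renilla* and -1.9 with sh10, and *Thy1* 0.29 and -2.88, but neither difference passed the FDR. Of 83 oxidative phosphorylation genes 40 were higher with *Renilla* (48.2%, against 11.0% of all), with a median of 0.33. With sh10 6 were (7.23%, against 7.51% of all), with a median of 0.16, or 12 and 0.27 without LSK library B. The *Renilla* transition has 4 libraries per cell type and the sh10 transition 3, so numbers called in the 2 transitions are not on an equal footing. The median difference was -0.17, negative in 74 genes, with an unadjusted p under 0.05 in 5 (6.02%, below the 7.76% of all tested genes) and an FDR under 0.05 in none. Such values were not limited to respiratory genes. Of 82 cytosolic ribosomal protein genes 17 were called higher with *Renilla* (20.7%, against 11.0% of all) and 2 with sh10 (2.44%, against 7.51% of all). The medians were 0.40 and 0.17, the latter 0.32 without LSK library B. The median difference was -0.21, negative in 69 genes, with an unadjusted p under 0.05 in 3 (3.66%, below the 7.76% of all tested genes). TCA cycle genes were called in 11 of 19 in both (57.9%, against 11.0% of all with *Renilla* and 7.51% with sh10), with medians of 0.29 and 0.31. Of 18 immediate early genes, 11 (61.1%) had an unadjusted p under 0.05 for the difference, whose median was -0.80, and none passed the FDR. No list's difference was tested as a whole.

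The 3 genes past the FDR were lymphoid. *Ccr9* had -3.06 with sh10 and 4.2 with *Renilla* shRNA, a difference of -7.26 (standard error 1.03, FDR 0.0298 by edgeR). In CMP it had 1.26, 0.201 and 0.418 CPM with sh10 and 17.9, 8.04, 25.1 and 9.08 with *Renilla*, and in LSK 7.4, 4.4 and 4.34 and 0.634, 1.0, 1.36 and 0.216. The direction was opposite in the 2 transitions, at few counts. *Lck* had 31.1, 11.1 and 20.3 CPM in CMP and 44.2, 59.1 and 40.5 in LSK with sh10. With *Renilla* it had 126, 88, 89.3 and 85.4 CPM in CMP and 48.8, 39.8, 37.6 and 55.1 in LSK, a difference of the 2 transitions of -2.30 (standard error 0.37, FDR 0.0425 by edgeR). *Lck* was thus lower in CMP than in LSK with sh10 and higher with *Renilla*, without overlap in either. *Ltb* had 55.6, 49.7, 62.6 and 102 CPM in CMP and 82.8, 78.9, 94.9 and 87 in LSK with *Renilla*, against 8.83, 6.23 and 8.98 and 63.4, 76.5 and 41.9 with sh10, a difference of -2.57 (standard error 0.41, FDR 0.0425 by edgeR). In CMP and in LSK alike each sh10 library had less *Ltb* than each *Renilla* library, by far more in CMP.

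Markers of T and natural killer cells, like these 3 genes, were lower in CMP with sh10 than in CMP with *Renilla* shRNA. With sh20 not all went together. There *Ccr9* had 0.339 and 0.527 CPM in CMP, *Lck* 90.8 and 71.8, *Ltb* 57.8 and 73.2, and *Cd3e* 33.7 and 11.9. In CMP, *Cd3e* had 1.05, 0 and 0.627 CPM with sh10 and 13.7, 8.53, 10.9 and 16.4 with *Renilla* shRNA. *Trbc1*, a T cell receptor constant gene, had 9.68, 1.21 and 2.72 and 40.5, 20.7, 36.4 and 22.3 CPM, and *Ncr1*, a receptor of natural killer cells, had 4.63, 5.02 and 7.52 and 72.1, 35.8, 46.4 and 29.7 CPM. The list of 16 B and T cell genes also holds *Ncr1* and *Klrb1c* of natural killer cells. Its summed level was 41.4 to 62.2 CPM in CMP with sh10 and 143 to 241 CPM in CMP with *Renilla*. In LSK it was 84.1 to 115 CPM with sh10 and 84.4 to 107 CPM with *Renilla*. The part of these markers in the *Ccr9*, *Lck* and *Ltb* results was not tested. None of the 3 differences passed with the log2 total counts as a covariate, when blocked by replicate letter, or without any one of several single libraries, the LSK sh10 libraries A and B and the CMP sh10 libraries B and C among them.

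**Figure D5:**
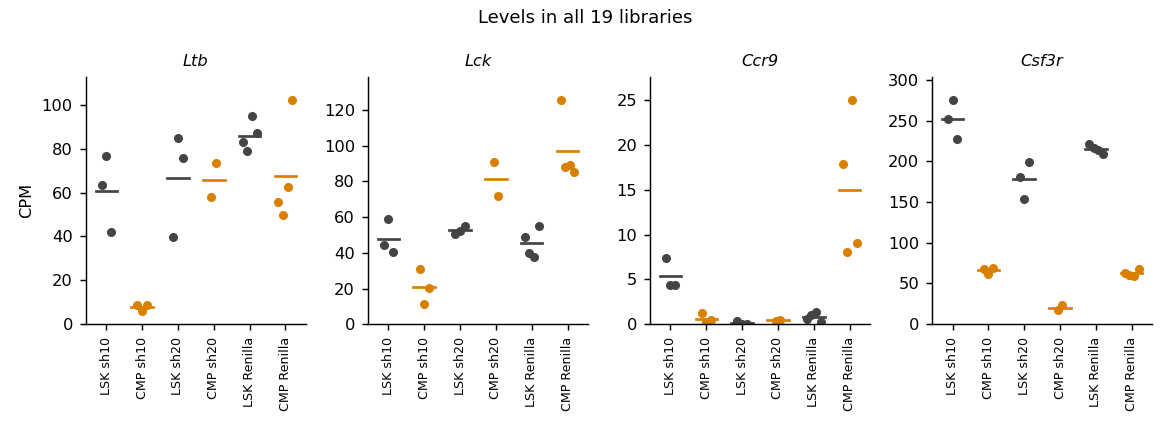
Levels of *Ltb*, *Lck*, *Ccr9* and *Csf3r* as CPM in all 19 libraries, by cell type and shRNA, with 1 point per library and a line at the mean of each group. *Ltb* and *Lck* lie lower in CMP with sh10 than with *Renilla* shRNA, and *Csf3r* lies lower in CMP than in LSK with each shRNA.

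Compared with sh20, the other shRNA against *Spehd*, 31 genes (0.206%) had a more positive difference between CMP and LSK with sh10 and 8 (0.0531%) a more negative one, and 2023 had an unadjusted p under 0.05. The CMP group with sh20 held 2 libraries, and without its library C the counts were 607 and 199. The well-counted genes of lowest p were examined. *P2ry2*, a nucleotide receptor, had 17.9, 13.7 and 15.5 CPM in CMP and 44.2, 50.9 and 35.4 in LSK with sh10, against 0.847 and 0.702 and 20.7, 31 and 28.7 with sh20. *Csf3r* had 17.8 and 23.2 CPM in CMP and 181, 154 and 199 in LSK with sh20, so the difference between CMP and LSK was larger than the -1.93 with sh10, by 1.19 (standard error 0.18). *Ltb* had 57.8 and 73.2 CPM in CMP and 39.8, 84.9 and 75.7 in LSK with sh20. *Cd3e* had 33.7 and 11.9 CPM in CMP with sh20. The summed level of the 16 listed B and T cell genes was 212 to 394 CPM in CMP with sh20, against 41.4 to 62.2 CPM with sh10. Its part in the *Ltb* difference was not tested. For *Prdm10*, *Aim2*, *Vdr*, *Prx*, *Bambi*, *Kcng1* and *Tbc1d32* the sh10 difference was more positive by 3.55 to 5.58 on the log2 scale. These genes were near the floor in both CMP libraries with sh20, at 0.176 CPM (the lowest, *Bambi*) to 1.86 CPM (the highest, *Aim2*), against 9.47 to 38.4 CPM in CMP with sh10 and 3.48 to 25.5 CPM in CMP with *Renilla*. The sh20 libraries of both cell types detected 17174 to 18066 genes and the 6 sh10 libraries 19042 to 20678, and the part of this in the differences was not tested.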

How the data were processed

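RNA-seq libraries of sorted CMP and LSK cells (labelled KLS) were prepared with the SMART-Seq v4 kit. Per the methods of the study, STAR aligned the reads to mm10, Picard dropped the duplicates, and HTSeq gave the counts that the authors deposited. Default parameters and the GENCODE vM11 annotation are stated. The deposited files hold raw counts per gene for each library, with 54352 genes, and were used as deposited. Libraries held 3647318 to 5965155 counted reads, and reads on no gene, 51.9% to 53.8% of reads on a gene, on none or on several, stayed out of library sizes. By default HTSeq-count keeps only reads on the strand of the gene, and the kit is not stated to mark the strand, so reads may have been dropped for their strand (its part in the reads on no gene was not tested) and reads of genes whose exons overlap cannot be told apart. Exons of *Ccr9*, *Cpox*, *Mecom*, *Ndufs1*, *Pklr*, *Pfkm*, *Sptb*, *Rb1*, *Cnrip1*, *Prtn3* and some others share bases with those of another tested gene in GENCODE vM21.

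Genes were tested with edgeR 4.0.16 (R 4.3.3, TMM normalization, quasi-likelihood test) in a fit of 6 groups over 19 libraries, after filterByExpr with a minimum count of 10 (total 15), with Benjamini-Hochberg adjustment over all genes (FDR 0.05). CPM values are counts scaled to the TMM-normalized library size. Summed levels cover every listed gene of a list, also those too low to be tested. DESeq2 1.42.0 was an alternative, and the others were other normalizations, filters, the replicate letters as a block, the 6 libraries alone, the total counts as a covariate, a fold of at least 1.5 and leaving out each library. "Every alternative" for a gene means all of these that tested it, other than the fold of 1.5. The analysis was tested on simulated data. The genes named are the 15 largest rises and falls that passed, averaged 50 counts or more and did not overlap between the groups, members of the gene lists (of the 2 longest lists the 3 highest and 3 lowest), the 10 of lowest p that passed in each comparison of transitions, and *Gata2* and *Rpn1*. The 26 lists, the rule and the tests were chosen with earlier results of these data known. Promoter sequences come from RefSeq (GRCm38.p6), and 15002 tested genes matched GENCODE vM21 by symbol, from which coordinates (GRCm38) were taken. Single values of a few list members are not reported here.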

Additional observations from a re-analysis of the deposited data

Results flagged for a closer look

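Results were marked where a test found that the difference between CMP and LSK itself differed between shRNAs. With sh10 against *Renilla* shRNA these were *Ccr9* (difference of log2 fold changes -7.26), *Ltb* (-2.57) and *Lck* (-2.30), at FDRs of 0.0298, 0.0425 and 0.0425 by edgeR. With sh10 against sh20 the 10 of lowest p were *Prdm10* (5.58), *P2ry2* (3.59), *Aim2* (3.90), *Vdr* (4.56), *Prx* (3.55), *Csf3r* (1.19), *Ltb* (-2.89), *Bambi* (3.80), *Kcng1* (4.69) and *Tbc1d32* (4.40). The CMP group with sh20 has 2 libraries, and *Ltb* is the gene marked in both comparisons. When blocked by replicate letter, 0 genes were more negative with sh10 in either comparison, so *Ltb* passed in neither.

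In 12 groups of 4 *Renilla* libraries that were examined for a library far from the others, 2 values were marked. Chance alone marks about 1 in 20. *Lck* had 125.9 CPM in the CMP library A with *Renilla* shRNA, against 85.4 to 89.3 CPM in the others, and the summed level of the immediate early genes was 1230 CPM in the LSK library D with *Renilla* shRNA. Neither is a library with sh10, and both enter the comparison of the transitions.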

How the results depend on the processing

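Direction under the alternatives was checked only for the named and listed genes, of which 193 passed with sh10. No checked value that passed its test turned direction. The count of genes higher or lower in CMP with sh10 (1131 and 1293) was 635 and 1358 with the 6 sh10 libraries alone, 251 and 428 for a fold of at least 1.5, and, over the leave-outs, 597 to 1412 higher and 694 to 1226 lower. Against *Renilla* the counts more positive and more negative with sh10 (0 and 3) were 86 and 67 with no filter, 3 and 23 with DESeq2, 0 negative with the total counts as a covariate, and 0 to 0 and 0 to 6 over the leave-outs. Against sh20 (31 and 8) they were 278 and 237 with no filter, 2 and 3 with at least 10 counts in every library, 175 and 128 with DESeq2, 18 and 2 with the covariate, and 18 to 607 and 2 to 199 over the leave-outs. The largest values are those without CMP sh20 library C, which leaves 1 library, assumed to vary like the other groups. The cause of these shifts was not tested.

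The replicate letters are shared by the groups, but the labels do not say that they mark a shared animal. Deviations of same-letter CMP and LSK libraries from their group means had r of 0.01 (A), 0.06 (B) and 0.27 (C), and not every library correlated best with its own letter. With the letters as a replicate block, 1020 genes were higher and 1123 lower with sh10, 379 and 860 with the 6 libraries alone, 0 more negative than with *Renilla*, and 6 more positive and 0 more negative than with sh20.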
